A study of Homo sapiens with 16 samples.

Results

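The TRPM channel family holds 8 human genes, TRPM1 to TRPM8, and the rows of both tables of values were searched for the Ensembl gene identifiers of these symbols. Of the 8, 6 had a row (TRPM2, TRPM3, TRPM4, TRPM5, TRPM7 and TRPM8) among 26410 genes in all, and TRPM1 and TRPM6 were not analysed here. RNA was sequenced from SH-SY5Y, an established human neuroblastoma line, in 16 libraries that form 4 groups of 4. The KO-labelled libraries came from clones KO11 and KO28, which had been transfected with a guide RNA against TRPM2, and the Scr libraries from clones Scr13 and Scr16, which went through the same selection with a scrambled guide. Each clone gave 2 replicates without treatment and 2 after doxorubicin, a topoisomerase poison, at 0.3 µM for 24 h per the sample labels (the series' own description gives 3 µM). The column headers mark the untreated libraries 0h and the treated ones 24h. The study describes 24 h of culture with or without the drug. A difference in harvest time was not tested and could not be told apart from the drug. Each of the 4 lines is 1 clone, so genotype rests on 2 clones against 2. The study calls the replicates of a clone biological, and the labels do not name separate cultures, so the p-values measure only the spread between these libraries, which may be technical. Between 10481177 and 25086085 reads fell on genes in each library. Of 9 adrenergic neuroblastoma markers all had reads in every group, with summed levels of 6194 ± 419 normalized CPM in Scr and 6464 ± 483 in KO-labelled libraries without treatment (SD, n = 4 each), and DBH, dopamine beta-hydroxylase, was the most abundant of them in both.

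TRPM proteins are cation channels of the plasma membrane or of internal membranes, each built from 4 subunits. TRPM2 passes calcium and opens when ADP-ribose and calcium bind it, and it is known as a channel of oxidative stress. TRPM4 and TRPM5 are opened by calcium from inside the cell and pass monovalent cations but hardly any calcium. TRPM7, like TRPM6, carries a protein kinase at its end and passes magnesium, calcium and zinc, TRPM8 is the cold and menthol sensor of sensory neurons, and TRPM3 is a heat and steroid sensor.

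The guide that was used lies at the start of the TRPM2 coding region, and the stretch is shown to place the guide in the annotated transcripts. Which TRPM2 RNAs the edit altered was not tested. The guide and the PAM after it are in capitals, and the stretch starts at the start codon on the plus strand of GRCh38, chr21:44353701-44353760.
TRPM2 coding start: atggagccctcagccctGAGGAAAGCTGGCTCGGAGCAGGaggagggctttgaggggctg
The guide itself covers chr21:44353718-44353737, starts at base 18 of the coding sequence in codon 6, and is followed by the PAM AGG. Of the 8 TRPM2 transcripts in GENCODE 29, 5 hold the guide, in exon 1 or exon 2. The other 3 begin 15384 to 71819 bases downstream of it. By the study's methods a donor replaced the start of the coding region and shifted the rest out of frame. Counts per gene do not show where in TRPM2 a read lies, so the level of TRPM2 RNA given here is no check of the deletion.

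The RefSeq promoters of the channels with the steadiest level and with a drug response are shown for their base composition (GRCh38.p14, 250 bases before to 50 after the start site). Capitals mark GGGCGG or its reverse complement, a GC box. TRPM7 is on the minus strand, chr15:50686748-50687047, and TRPM4 on the plus strand, chr19:49157542-49157841.
TRPM7 promoter: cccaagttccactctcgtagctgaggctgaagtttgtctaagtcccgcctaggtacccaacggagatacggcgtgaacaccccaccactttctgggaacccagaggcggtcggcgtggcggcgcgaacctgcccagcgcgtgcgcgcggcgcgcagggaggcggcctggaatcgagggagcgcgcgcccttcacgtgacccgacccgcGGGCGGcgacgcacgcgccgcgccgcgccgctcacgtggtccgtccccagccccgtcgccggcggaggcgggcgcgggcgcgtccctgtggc
TRPM4 promoter: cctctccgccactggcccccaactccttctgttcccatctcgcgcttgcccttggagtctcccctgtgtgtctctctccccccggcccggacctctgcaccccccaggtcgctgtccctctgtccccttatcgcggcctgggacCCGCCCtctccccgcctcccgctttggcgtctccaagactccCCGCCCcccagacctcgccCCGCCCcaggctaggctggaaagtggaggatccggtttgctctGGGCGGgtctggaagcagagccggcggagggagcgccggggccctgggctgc
The TRPM7 window held 48 CG dinucleotides, more than 98.0% of 35116 such windows in RefSeq. The TRPM4 window held 21, more than 60.5% of them, and 4 GC boxes against 1 in TRPM7. On either strand, 45.0% of all windows held a GC box. TRPM8 has 6 RefSeq start sites, and their windows held 1 to 5 CG dinucleotides, where the median of all windows was 14. TRPM2 has 3 start sites, at 44350141, 44353621 and 44425650 on chromosome 21, with 35, 6 and 19 CG dinucleotides. The last of these lies downstream of the guide. TRPM5 was not matched.

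TRPM7 carried most of the family's RNA in every library. Set per kilobase of exon, so that genes can be compared, its level was 7.23 ± 0.356 normalized CPM per kb in Scr and 6.93 ± 0.518 in KO-labelled libraries without treatment (SD, n = 4 each). TRPM4 followed at 1.28 ± 0.216 and 1.38 ± 0.271. The 6 genes together summed to 8.57 ± 0.473 and 8.62 ± 0.281 normalized CPM per kb, of which TRPM7 made up 84.4% ± 2.25 and 80.2% ± 3.90. TRPM4 made up 14.9% ± 1.99 and 16.0% ± 3.50. TRPM2, the gene the guide was aimed at, made up 0.101% ± 0.117 of the family in untreated Scr and 3.36% ± 0.677 in untreated KO-labelled libraries. TRPM5, TRPM8 and TRPM3 were lower than TRPM7 and TRPM4 in every library.

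By the mean over the 16 libraries the order per kilobase within the family was TRPM7, TRPM4, TRPM2, TRPM5, TRPM8 and TRPM3. The lowest TRPM7 library (6.13 normalized CPM per kb) lay above the highest of TRPM4 (2.74), and the lowest of TRPM4 (1.02) lay above the highest of TRPM2 (0.332) and of TRPM5 (0.660). TRPM2 (mean 0.139, SD 0.126) and TRPM5 (0.138, SD 0.187) did not differ beyond their spread, and their order depended on the group. TRPM5 was above TRPM2 in untreated Scr (0.0455 against 0.00870 normalized CPM per kb), treated Scr (0.154 against 0.0687) and treated KO-labelled libraries (0.337 against 0.189), and TRPM2 was the higher one in untreated KO-labelled libraries (0.289 against 0.0152). TRPM8 and TRPM3 were at 3 reads or fewer, the floor taken for detection, in 13 and in 16 of 16 libraries. The floor is 0.118 to 0.285 normalized CPM depending on the library and covers counting error only. Among 11 other TRP channels with a row, MCOLN1 and PKD2, channels of lysosomes and of cilia and the endoplasmic reticulum, were at 8.53 ± 0.956 and 8.13 ± 0.992 normalized CPM per kb (SD, n = 16), next to 7.01 ± 0.483 for TRPM7. TRPC1 stood between TRPM7 and TRPM4 at 3.19 ± 0.666.

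**Figure D1:**
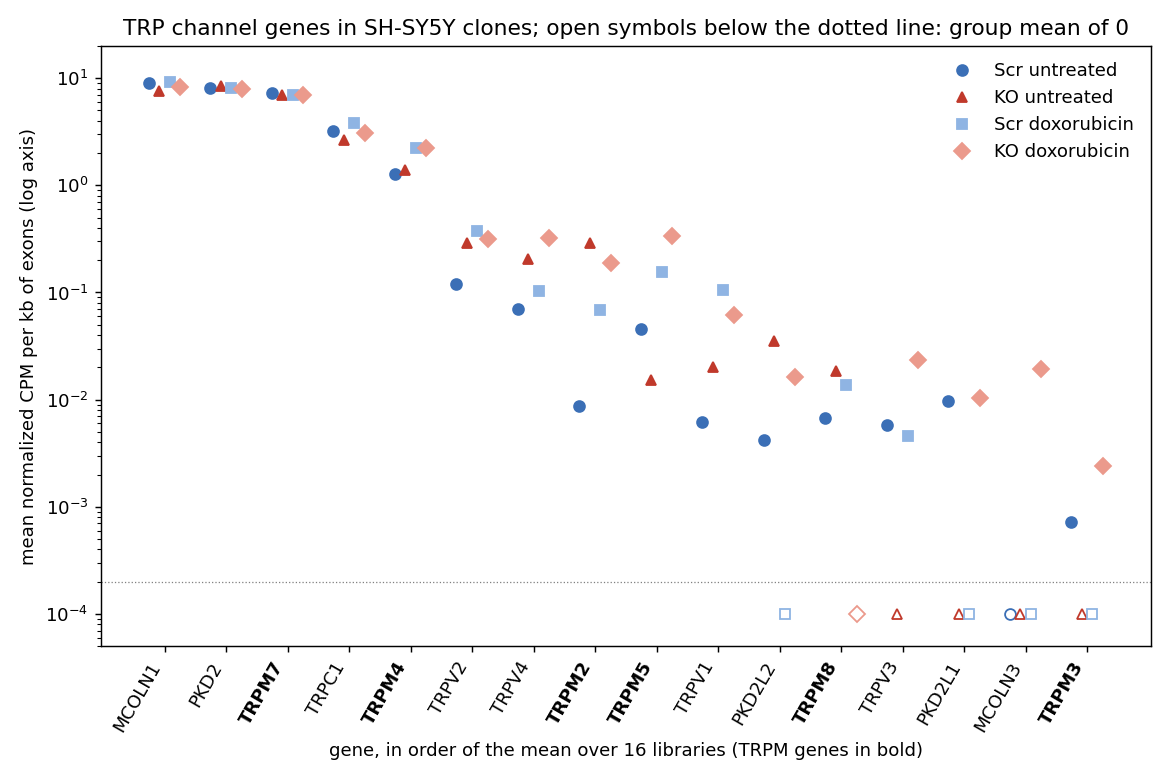
Mean normalized CPM per kb of exons (log axis) of 6 TRPM genes (bold) and the other TRP channel genes shown in each of the 4 groups (n = 4 libraries each), ordered by the mean over 16 libraries; open symbols below the dotted line are group means of 0. TRPM7 stands with MCOLN1 and PKD2 at the top, TRPM4 follows TRPC1, and TRPM2 and TRPM5 have overall means of 0.139 and 0.138 with their lowest group in untreated Scr and untreated KO-labelled libraries, respectively.

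TRPM7 (ENSG00000092439, chr15:50552473-50686815, minus strand) hardly varied. In untreated Scr cells it was at 84.0 and 94.7 normalized CPM in Scr13 and at 90.6 and 89.1 in Scr16. In untreated KO-labelled cells it was at 93.1 and 87.5 in KO11 and at 85.2 and 77.6 in KO28. After doxorubicin the values were 78.2, 86.9, 94.1 and 83.4 in Scr and 87.1, 88.6, 94.6 and 76.0 in KO-labelled libraries. All 4 groups overlapped. The coefficient of variation over the 16 libraries was 6.88%, and genes within 2-fold of its mean level had a median of 11.2%. Each library gave 990 to 2135 reads of TRPM7, so it is the member with the most precise level.

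No difference of TRPM7 passed the threshold of an adjusted p below 0.05 (limma with Benjamini-Hochberg adjustment over all genes tested). On the log2 scale (normalized CPM + 1) the difference between KO-labelled and Scr libraries was -0.06 (SE 0.080, adjusted p = 0.815) without treatment, with a 95% interval (normal approximation to the fitted estimate, as in all such intervals here) from -0.22 to 0.10. After doxorubicin it was 0.01 (SE 0.089, adjusted p = 0.955), from -0.16 to 0.19. The doxorubicin difference was -0.07 (SE 0.082, adjusted p = 0.672) in Scr, from -0.23 to 0.10, and 0.01 (adjusted p = 0.958) in KO-labelled clones, from -0.15 to 0.17.

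TRPM4 (ENSG00000130529, chr19:49157741-49211836, plus strand) rose with doxorubicin in both genotypes. In untreated Scr cells it was at 7.79 and 9.61 normalized CPM in Scr13 and at 6.75 and 9.66 in Scr16. After the drug it was at 18.1 and 16.8 in Scr13 and at 13.1 and 10.7 in Scr16. The lowest treated Scr library lay above the highest untreated one, as for 17.1% of all genes tested. In KO-labelled cells it went from 8.15 and 7.35 to 13.9 and 10.3 in KO11, and from 9.39 and 11.5 to 16.8 and 17.5 in KO28. Across both clones the KO-labelled groups overlapped, since the lower treated library of KO11 was below the higher untreated library of KO28. Within each of the 4 clones both treated libraries were above both untreated ones, which held for 6% of all genes tested.

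The rise of TRPM4 was 0.72 on the log2 scale in Scr (SE 0.18, limma adjusted p = 0.00574) and 0.62 in KO-labelled clones (SE 0.18, adjusted p = 0.0121). From pooled reads the ratios were 2.05 in Scr13 (95% exact counting interval 1.80 to 2.34), 1.42 in Scr16 (1.20 to 1.67), 1.56 in KO11 (1.33 to 1.83) and 1.66 in KO28 (1.43 to 1.91). The interval of Scr13 did not reach that of Scr16, although these intervals cover counting error only. Of the 3 members tested, TRPM4 was the one called in each of these 2 comparisons, where 12.6% of all genes tested were called in Scr and 17.8% in KO-labelled clones. No difference between the genotypes in this response passed the threshold (interaction -0.09, SE 0.25, adjusted p = 0.961, interval from -0.58 to 0.39). The call in Scr held under all 23 alternatives, and the call in KO-labelled clones under 22 of 23. Without KO11 doxorubicin replicate 1 it was 0.55 with an adjusted p of 0.0592.

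No difference of TRPM4 between genotypes passed the threshold. Without treatment its mean was 9.09 ± 1.79 normalized CPM in KO-labelled and 8.45 ± 1.43 in Scr libraries (SD, n = 4 each), a log2 difference of 0.09 with an interval from -0.28 to 0.46 (limma adjusted p = 0.902). After doxorubicin the means were 14.6 ± 3.27 and 14.7 ± 3.40, with an interval from -0.38 to 0.37. KO28 was above KO11 by 0.43 (SE 0.17, unadjusted p = 0.0179, adjusted p = 0.396), which missed the threshold.

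**Figure D2:**
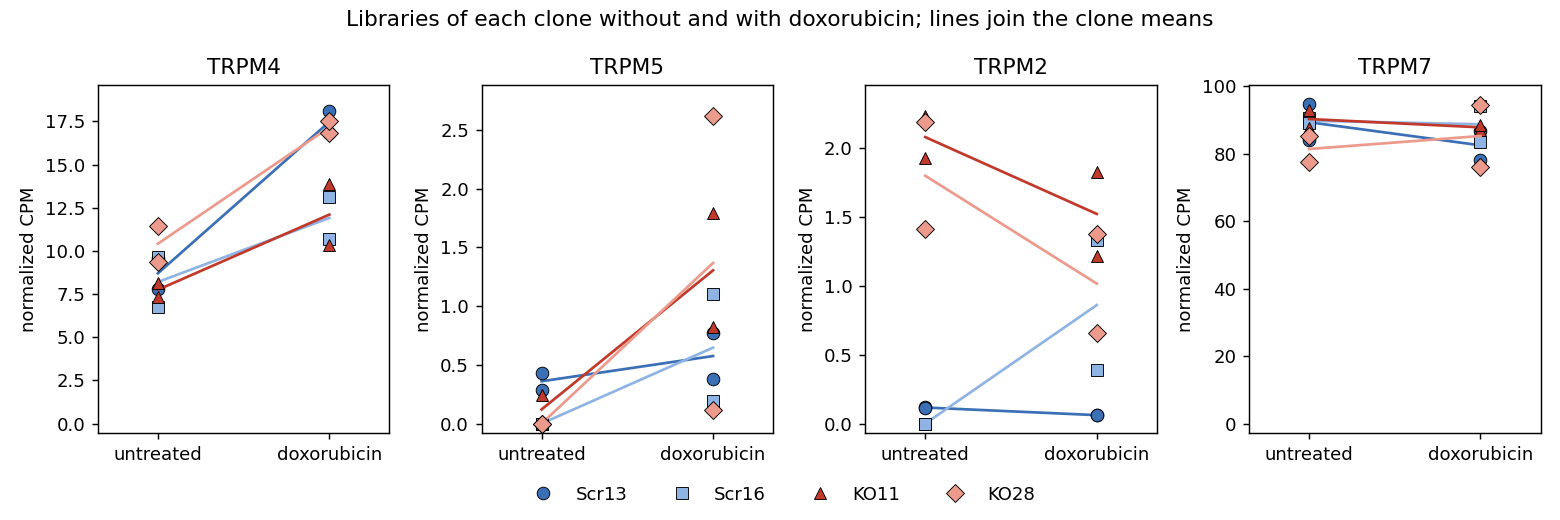
Normalized CPM of TRPM4, TRPM5, TRPM2 and TRPM7 in each library of the 4 clones without and with doxorubicin, where symbols are libraries (2 per clone and treatment) and lines join the means of a clone. All 4 lines of TRPM4 go up, from means of 7.75 to 10.4 to means of 11.9 to 17.5, the TRPM2 line goes up in Scr16 and down in KO11 and KO28 (Scr13 has 1 to 3 reads per library), and the TRPM7 lines stay between 81.4 and 90.3.

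TRPM2 (ENSG00000142185, chr21:44350163-44443081, plus strand) had more reads in the untreated libraries labelled KO than in the Scr ones. The 4 KO-labelled libraries held 35, 37, 21 and 30 reads. Those of Scr13 held 3 and 2, and those of Scr16 0 and 0. No KO-labelled library reached down to the range of the Scr ones, a separation seen for 9.29% of all genes tested without treatment. Pooled, 123 reads stood against 5, a ratio of 29.8 with a 95% exact counting interval from 12.4 to 93.3, and 49.8 (13.5 to 415) without Scr13 untreated replicate 1. The exact permutation test over libraries gave p = 0.0286 (two-sided, the smallest that 4 libraries against 4 allow), and with clones as the unit, 2 against 2, no p below 0.333 can be reached. The target of the guide is thus the higher one in the libraries labelled KO, at a low level in absolute terms (1.94 ± 0.378 normalized CPM, SD, n = 4). The study reports its knockout cells as authenticated by RT-PCR and Western blots, and counts per gene are no check of that.

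The fitted difference was 1.47 on the log2 scale (SE 0.27, limma adjusted p = 0.00154), and it is understated by the added 1 in log2(normalized CPM + 1) for a gene this low. With 0.25 added it was 2.84, and in edgeR's quasi-likelihood test and in DESeq2 on recovered reads it was 4.79 and 4.95. TRPM2 was called under each of the 14 alternatives in which it was tested. It passed the filter of 1 normalized CPM in 4 libraries through the KO-labelled group alone, so it is no measure of how often members differ, and it was not tested in the fits that left out a KO-labelled library or clone. TRPM4 and TRPM7 were the other members tested, neither was called, and 4.84% of all genes tested were.

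After doxorubicin the libraries labelled KO and Scr overlapped in TRPM2. KO11 held 19 and 29 reads and KO28 21 and 11. Scr13 held 1 and 1, and Scr16 held 14 and 6. Both Scr16 libraries thus stood above both Scr13 libraries, and the higher one, at 1.33 normalized CPM, lay within the KO-labelled range of 0.658 to 1.83. Of the 2 Scr clones, Scr16 had no TRPM2 read before the drug and 20 after it, a ratio with a lower limit of 6.46 (95% exact counting interval). Without Scr16 doxorubicin replicate 1, which held 14 of the 20 reads, that limit was 2.59. The Scr13 libraries held 1 to 3 reads each, within the floor, and 2 reads after the drug stood against 5 before it (ratio 0.523, 95% exact counting interval 0.0498 to 3.20). The ratio of Scr16 to Scr13 after the drug was 12.6 (3.06 to 111), and 6.37 (1.14 to 64.5) without that library or 21.7 without Scr16 doxorubicin replicate 2. Leaving out single libraries from the pooled ratios was chosen after seeing the data.

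Over all libraries the difference of TRPM2 after doxorubicin was 0.69 on the log2 scale (SE 0.33, limma adjusted p = 0.249), and the exact permutation test gave p = 0.0857 (two-sided). Without clone Scr13 it was 0.31 (adjusted p = 0.697), and without clone Scr16 TRPM2 fell below the filter. Of the 3 members tested, 0 were called by limma, by edgeR and by DESeq2, and 0 had an unadjusted p below 0.05 in the limma fit with the filter, where limma called 8.69% of all genes tested. Without the filter the unadjusted p of TRPM2 was 0.0314 (adjusted p = 0.278). Pooled, 80 reads in the libraries labelled KO stood against 22 in Scr, a ratio of 3.36 with a 95% exact counting interval from 2.07 to 5.65, and 7.57 (3.66 to 18.1) without Scr16 doxorubicin replicate 1. Within the libraries labelled KO, TRPM2 went from 72 to 48 reads in KO11 (ratio 0.735, 0.499 to 1.07) and from 51 to 32 in KO28 (0.561, 0.349 to 0.890, or 0.369, 0.173 to 0.717, without KO28 doxorubicin replicate 1). The fitted doxorubicin difference there was -0.39 (adjusted p = 0.388), with an interval from -0.95 to 0.17, against 0.39 in Scr (adjusted p = 0.421), from -0.17 to 0.94. The Scr value was 0.15 (adjusted p = 0.825) without Scr16 doxorubicin replicate 1, which held 14 of the 22 treated Scr reads. The interaction was -0.78 (SE 0.40, unadjusted p = 0.0629, adjusted p = 0.630). Pooled over both clones the reads of TRPM2 with and without the drug had a ratio of 0.649 in KO-labelled libraries (0.483 to 0.867) and of 5.76 in Scr (2.13 to 19.5), intervals that cover counting error only. Without Scr16 doxorubicin replicate 1 the Scr ratio was 2.55 (0.736 to 9.91), and without Scr13 untreated replicate 1 it was 9.62 (2.37 to 84.4). Over libraries neither difference passed the threshold. None of the 3 members tested had an interaction past the threshold by limma or edgeR, or an unadjusted p below 0.05 in the limma fit with the filter, and 0.0261% of all genes tested were called by limma. Without the filter the unadjusted p of TRPM2 was 0.0263 (adjusted p = 0.628). DESeq2 gave an adjusted p for TRPM7 alone there, which was not past the threshold.

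TRPM2-AS lies on the opposite strand within TRPM2 and was not analysed here. Since the use of strand in counting is not given in the sources used here, the part of antisense RNA in the TRPM2 reads was not tested. The 13 neighbours of TRPM2 on chromosome 21 with a row summed to 800 ± 19.2 normalized CPM in Scr and 814 ± 22.4 in KO-labelled libraries without treatment (SD, n = 4 each). Of the 9 neighbours tested, 0 were called between KO-labelled and Scr libraries by limma, edgeR and DESeq2 in either treatment, and 0 had an unadjusted limma p below 0.05, where limma called 4.84% of all genes tested without and 8.69% with the drug. Their median log2 difference was 0.02 without treatment and 0.03 after the drug, beside -0.007 and 0.01 over all genes. PFKL, the liver form of phosphofructokinase, was the neighbour that rose with doxorubicin, by 0.37 in Scr (adjusted p = 0.00123) and by 0.46 in KO-labelled clones (adjusted p = 5.81e-05), and 8 of 9 were not called in either, where 12.6% and 17.8% of all genes tested were.

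Some markers of fibroblasts were higher in libraries labelled KO, as TRPM2 was. The summed level of 7 such genes was 243 ± 68.2 normalized CPM in Scr and 394 ± 54.2 in KO-labelled libraries without treatment, and 189 ± 24.6 and 389 ± 43.7 after doxorubicin (SD, n = 4 each). COL1A1, COL3A1, DCN and LUM were called higher there in both treatments, by 1.52, 2.17, 1.40 and 2.45 on the log2 scale without the drug, and none of the 7 was at 0 in all libraries of a group. Of 7 tested without the drug 3 were not called, and of 6 tested after it 2 were not called, with 0 called lower in either. DCN in both treatments and LUM after the drug passed the filter through the KO-labelled libraries alone, since their highest Scr libraries were at 0.472, 0.760 and 0.631 normalized CPM, so the number of markers called is no support. Over all genes tested, 4.84% were called in either direction without and 8.69% with the drug. COL3A1 was the most abundant in KO-labelled libraries, with means of 175 normalized CPM without and 189 with the drug, so it made up much of the sums there. THY1 was the most abundant in Scr libraries, at 104 and 81.2. Without the filter, or without clone KO28, the calls of COL1A1 and COL3A1 were lost in untreated cells, with adjusted p between 0.0610 and 0.152. The COL3A1 call was also lost by DESeq2 (0.171) and without clone Scr16 (0.0735), and the DCN call without clone Scr13 or clone Scr16 (adjusted p = 0.0638 and 0.0735). After the drug the COL1A1 call was lost without the filter (0.0595) and without clone KO28 (0.0730). Melanocyte markers summed to 9.50 ± 1.83 and 6.12 ± 2.77 normalized CPM (3 genes, PMEL the most abundant), and Schwann cell markers to 2.73 ± 0.705 and 2.31 ± 0.637 (3 genes), with 0 of the 1 tested gene of each called. TYRP1 was at 0 in all 4 Scr libraries of each treatment. The part of such cells or programmes in the TRPM2 result was not tested. Among 8 adrenergic markers tested without the drug, GATA3 was higher in libraries labelled KO (0.32, limma adjusted p = 0.0344), a call made in 10 of 20 alternatives. Another 1 of the 8 was called lower there. After the drug 0 of 8 were called higher and 1 was called lower, so these markers had no common direction. Fewer cells of a type and less RNA per cell cannot be told apart in these bulk libraries.

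**Figure D3:**
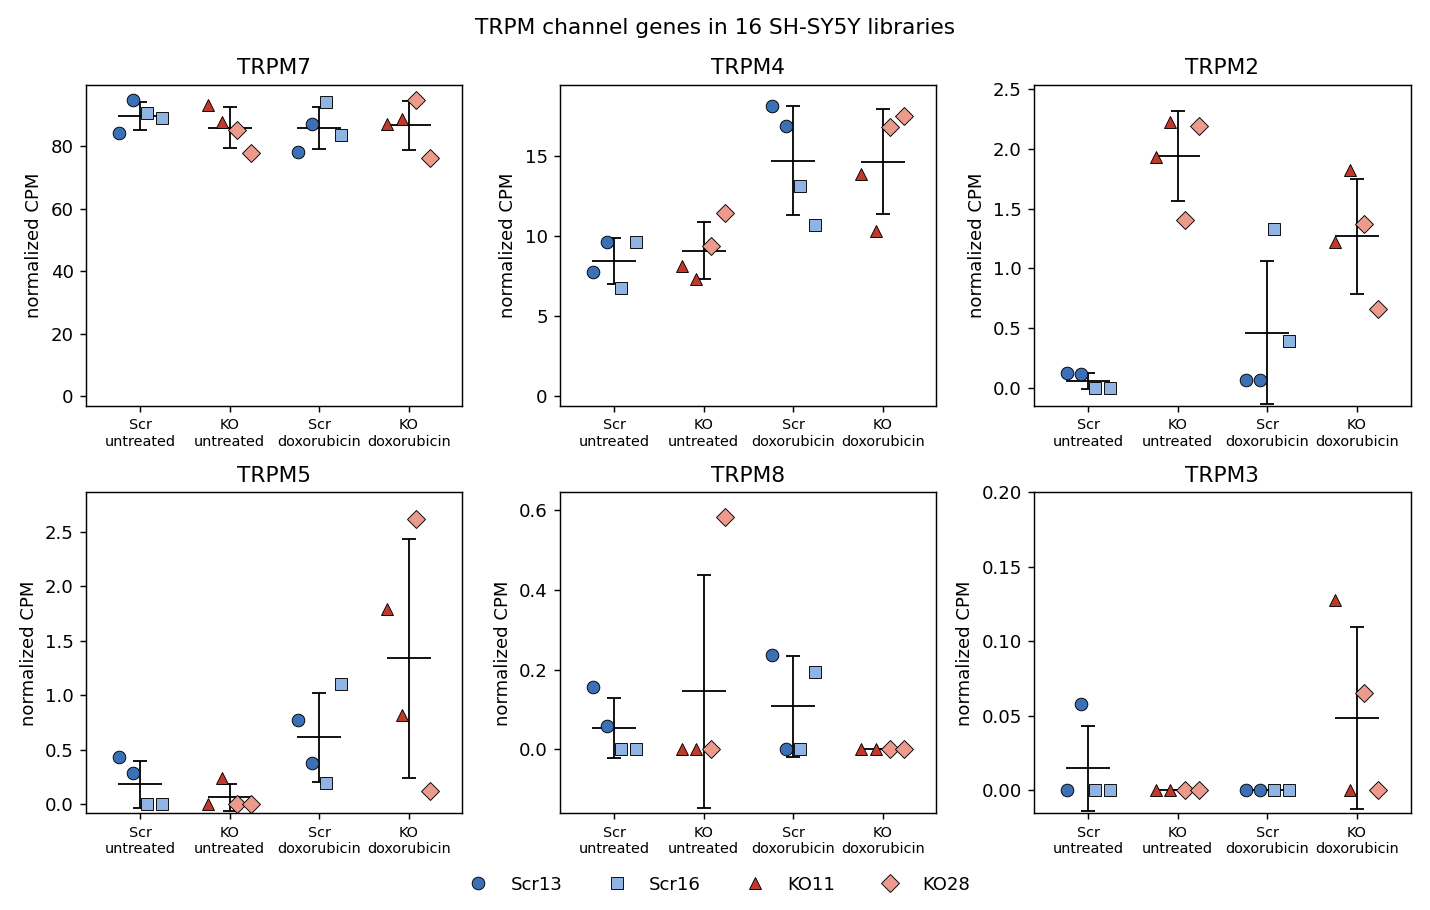
Normalized CPM of each of the 6 TRPM genes in all 16 libraries, in 4 groups of 4, with symbols for the clones and a bar with whiskers for the mean ± SD of each group (each panel has its own axis). The libraries labelled KO lie above all Scr libraries for TRPM2 without treatment, the treated libraries of TRPM4 lie above the untreated ones of the same clone, and TRPM8 and TRPM3 are at or near 0 in most libraries.

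TRPM5 (ENSG00000070985, chr11:2404515-2423045, minus strand), the taste cell channel, was near 0 without the drug and had more reads after it. Untreated Scr13 held 11 and 5 reads, Scr16 0 and 0, KO11 0 and 4, and KO28 0 and 0. After doxorubicin Scr13 held 13 and 6, Scr16 2 and 17, KO11 28 and 13, and KO28 40 and 2. Replicates of a clone differed widely, and the lower treated library of Scr16, like that of KO28, held 2 reads, within the floor. In Scr13 the pooled ratio was 1.55 (95% exact counting interval 0.757 to 3.23), so no rise was shown there. Pooled reads went from 4 to 83 in KO-labelled libraries, a ratio of 20.7 (95% exact counting interval 7.79 to 77.8), and from 16 to 38 in Scr, a ratio of 3.11 (1.69 to 5.97). All 4 untreated KO-labelled reads came from KO11 replicate 2, and without Scr13 untreated replicate 1 the Scr ratio was 6.65 (2.61 to 21.6). KO28 went from 0 reads to 42, a ratio with a lower limit of 9.74 (95% exact counting interval), but 40 of the 42 were in replicate 1 and the 2 reads of replicate 2 were within the floor, so the limit rests on 1 library (0.321 without it).

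TRPM5 did not pass the filter in any of the 7 comparisons, so the values above are a description. In the fit without a filter its doxorubicin difference was 1.01 on the log2 scale in KO-labelled clones (SE 0.29, limma adjusted p = 0.0469) and 0.43 in Scr (SE 0.29, adjusted p = 0.516). The difference between these responses was 0.58 (SE 0.41, adjusted p = 0.831), so the responses were not shown to differ. Between KO-labelled and Scr libraries it was -0.14 (adjusted p = 0.778) without and 0.44 (adjusted p = 0.656) with the drug.

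TRPM8 (ENSG00000144481, chr2:233917398-234019522, plus strand) had 20 reads in all. KO28 untreated replicate 2 held 8 of them, the other 3 KO-labelled untreated libraries 0, and the 4 treated KO-labelled libraries 0. Scr13 held 4 and 1 before and 4 and 0 after the drug, and Scr16 0 and 0 before and 0 and 3 after. TRPM3 (ENSG00000083067, chr9:70529063-71446904, minus strand, the host of MIR204) had 4 reads in all, 1 in Scr13 without the drug, 2 in KO11 and 1 in KO28 after it. Both were within the floor in most libraries, and no difference of either passed the threshold in the limma fit without a filter. Pooled, TRPM8 had 0 reads in treated KO-labelled libraries against 7 in treated Scr (95% exact counting interval of the ratio 0 to 0.640). Against the 8 reads of untreated KO-labelled libraries it was 0 to 0.584, resting on KO28 untreated replicate 2. The first limit was 1.59 without Scr13 doxorubicin replicate 1 and 1.03 without Scr16 doxorubicin replicate 2. These intervals cover counting error only.

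**Figure D4:**
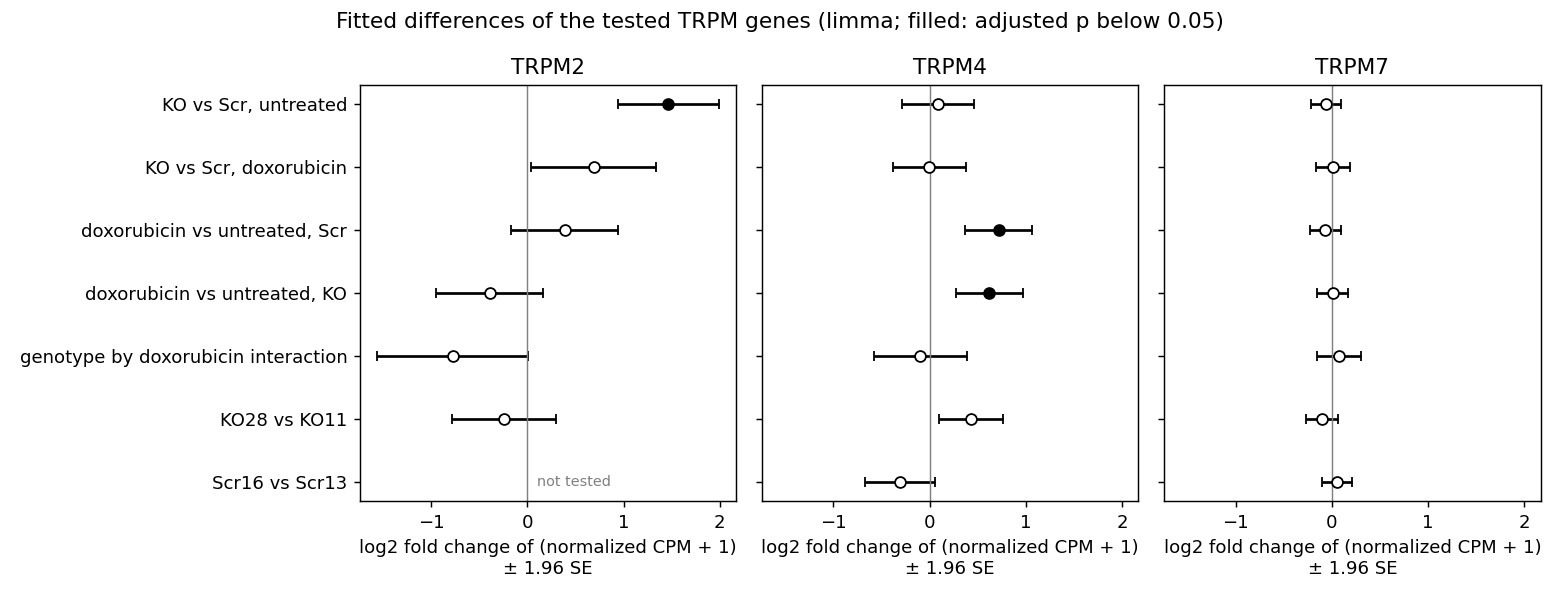
Log2 fold change of (normalized CPM + 1) with 95% intervals for TRPM2, TRPM4 and TRPM7 in 7 comparisons (limma), where filled points have an adjusted p below 0.05. TRPM2 is filled in untreated KO-labelled against Scr libraries (1.47), TRPM4 in both doxorubicin comparisons (0.72 and 0.62), and TRPM7 in none.

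No tested member differed past the threshold between clones of the same label. For Scr16 against Scr13 the difference was 0.06 for TRPM7 (interval from -0.10 to 0.21) and -0.31 for TRPM4 (from -0.67 to 0.06), with 0 of 2 members called by limma, edgeR and DESeq2, 0 at an unadjusted limma p below 0.05, and 0.0348% of all genes tested called. For KO28 against KO11 it was -0.24 for TRPM2 (from -0.78 to 0.30) and -0.10 for TRPM7 (from -0.27 to 0.07), with 0 of 3 called by the same tools, 1 (TRPM4) at an unadjusted p below 0.05, and 0.138% of all genes tested called. TRPM2 did not pass the filter in the Scr clones.

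The genes of which the log2 level was most like that of TRPM4 over the 16 libraries were PTPRN (Pearson r = 0.933), COL6A2 (0.930) and CLIP2 (0.928), out of 14481 genes with a mean of at least 1 normalized CPM. For TRPM7 they were SLC49A4 (0.844), PHF3 (0.783) and UGDH-AS1 (0.781). These libraries share clones and treatments, so the values describe a shared pattern over groups as well as over replicates. TRPM2 was below the mean level of 1 normalized CPM that was asked for.

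Among 13 genes that act on the ligand of TRPM2 or in its gating, PARP1 and PARP2 fell with doxorubicin in both genotypes. PARP1, the abundant polymerase whose poly(ADP-ribose) is broken down to ADP-ribose, was at 695 ± 22.8 normalized CPM in untreated Scr, 555 ± 45.9 in treated Scr, 663 ± 17.4 in untreated KO-labelled and 464 ± 31.3 in treated KO-labelled libraries (SD, n = 4 each). It fell by 0.33 in Scr (limma adjusted p = 0.00173) and by 0.52 in KO-labelled clones (adjusted p = 2.70e-06) on the log2 scale. PARP2, its close relative, fell by 0.34 (adjusted p = 0.0261) and by 0.43 (adjusted p = 0.00354). The PARP2 call in Scr was lost when any of 5 Scr libraries was left out (both untreated Scr16 libraries, Scr13 untreated replicate 2, and the treated replicate 1 of each Scr clone), with adjusted p of 0.0556 to 0.102.

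Between genotypes 1 of 11 tested genes of this group was called after doxorubicin, PARP1, at -0.26 (limma adjusted p = 0.0391). The PARP1 genotype call was lost without the filter (adjusted p = 0.136), without any clone (0.0813 to 0.316) and without KO11 doxorubicin replicate 1 or 2, Scr13 or Scr16 doxorubicin replicate 2 or KO28 doxorubicin replicate 1 (0.0533 to 0.165). With doxorubicin, 2 of 13 fell in KO-labelled clones, where 17.8% of all genes tested were called, and 0 rose in either genotype. The median of the group in Scr and in KO-labelled clones was -0.16 and -0.14 on the log2 scale, beside -0.01 and 0.02 over all genes. No gene of the group had an interaction past the threshold by limma or edgeR, or by DESeq2 among the 11 it gave an adjusted p, and 0 of 13 had an unadjusted limma p below 0.05.

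Among 16 tested genes of magnesium handling, the other side of TRPM7 function, 2 were called with doxorubicin in Scr and 2 in KO-labelled clones, where 12.6% and 17.8% of all genes tested were called. PTP4A1, a phosphatase that binds the CNNM magnesium transporters, rose with doxorubicin from 169 ± 14.7 to 229 ± 11.9 normalized CPM in Scr and from 165 ± 14.3 to 276 ± 12.6 in KO-labelled libraries (SD, n = 4 each). The log2 changes were 0.44 (limma adjusted p = 6.50e-05) and 0.74 (adjusted p = 6.28e-09), and both held under all 23 alternatives. After the drug it was higher in libraries labelled KO by 0.27 (adjusted p = 0.0174), a call lost without any single clone (adjusted p = 0.0549 to 0.301) and without KO11 doxorubicin replicate 1 or 2 or Scr16 doxorubicin replicate 2. NIPA2, a magnesium transporter, fell by 0.33 in Scr (adjusted p = 0.0117), which was lost without Scr16 untreated replicate 1 (0.0592) or Scr16 doxorubicin replicate 1 (0.0612). SLC41A3, a magnesium carrier of mitochondria, rose by 0.36 in KO-labelled clones (adjusted p = 0.0383), lost in edgeR (0.0610), without the filter (0.112), under library size alone (0.0619), and without any KO11 library, KO28 untreated replicate 1 or KO28 doxorubicin replicate 2 (0.0625 to 0.161). In all, 1 gene rose and 1 fell in Scr, 2 rose and 0 fell in KO-labelled clones, and untreated genotypes had 0 of 16 called by limma, edgeR and DESeq2, with 2 at an unadjusted limma p below 0.05. Between genotypes 4.84% of all genes tested were called without and 8.69% with the drug.

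Of the substrates of the TRPM7 kinase, 4 were tested. MYH9 and MYH10, the heavy chains of nonmuscle myosin IIA and IIB, were the most abundant. MYH9 was higher in libraries labelled KO after doxorubicin (339 ± 29.1 against 260 ± 19.0 normalized CPM, SD, n = 4 each), by 0.38 on the log2 scale (limma adjusted p = 0.00252). MYH10 was lower after the drug in KO-labelled clones by -0.20 (adjusted p = 0.0419), a call that was lost without the filter (0.0778) and without any KO-labelled library but KO28 untreated replicate 2 and KO28 doxorubicin replicate 1 (0.0699 to 0.143). In untreated genotypes, and with the drug in Scr, 0 of 4 were called by limma, edgeR and DESeq2, with 1 and 0 at an unadjusted limma p below 0.05. Of all genes tested, 4.84% and 8.69% were called between genotypes without and with the drug, and 12.6% and 17.8% with the drug in Scr and in KO-labelled clones.

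Among 12 tested genes of proteins that act with the other channels, RGS11 and ITPR3 were lower in libraries labelled KO. RGS11, which with RGS7 shuts off the G protein that holds TRPM1 closed in retinal bipolar cells, was at 10.5 ± 3.22 normalized CPM in Scr and 2.95 ± 1.41 in KO-labelled libraries without the drug, and at 16.6 ± 4.20 and 4.71 ± 1.06 after it (SD, n = 4 each). The log2 differences were -1.57 (limma adjusted p = 6.49e-04) and -1.61 (adjusted p = 2.53e-05), and both held under all 20 alternatives. ITPR3, the calcium release channel upstream of TRPM5 in taste cells, was at 10.8 ± 3.09 and 5.19 ± 2.11 without and at 24.6 ± 7.81 and 8.57 ± 2.52 with the drug. It was lower in libraries labelled KO by -0.96 (adjusted p = 0.0205) and -1.42 (adjusted p = 1.00e-04), and it rose with the drug in Scr by 1.11 (adjusted p = 0.00190). The untreated ITPR3 call was lost in 9 of 20 alternatives (adjusted p of 0.0609 to 0.193), namely the fit without a filter and those without clone KO11, Scr13 or Scr16 or without KO11 untreated replicate 1 or 2, Scr13 untreated replicate 1, Scr16 untreated replicate 2 or KO28 untreated replicate 1.

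ABCC8, the SUR1 subunit known to assemble with TRPM4, rose with the drug in KO-labelled clones from 1.57 ± 0.716 to 4.41 ± 1.05 normalized CPM (SD, n = 4 each), by 1.09 on the log2 scale (limma adjusted p = 0.0149), a call not made by edgeR (adjusted p = 0.0540) or without the filter (0.0837). In Scr it was at 1.48 ± 1.07 and 1.94 ± 1.57. RGS7 fell with the drug in KO-labelled clones by 0.79 (adjusted p = 0.0271), lost without the filter (0.101) and without replicate 2 of either KO-labelled clone under either treatment (0.0594 to 0.135). TCAF1, a partner of TRPM8, was higher in libraries labelled KO after the drug by 0.29 (adjusted p = 0.0223), lost in 9 of 20 alternatives (0.0510 to 0.306), namely without the filter, with reads summed per clone, without clone KO11, Scr16 or KO28, without either treated KO11 library, without Scr16 doxorubicin replicate 2 or without KO28 doxorubicin replicate 1. Of 12 tested genes, 0 were higher and 2 lower in untreated libraries labelled KO and 1 higher and 2 lower after the drug. With doxorubicin 1 rose in Scr, and 1 rose and 1 fell in KO-labelled clones. Of all genes tested, 4.84% and 8.69% were called between genotypes and 12.6% and 17.8% with the drug.

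**Figure D5:**
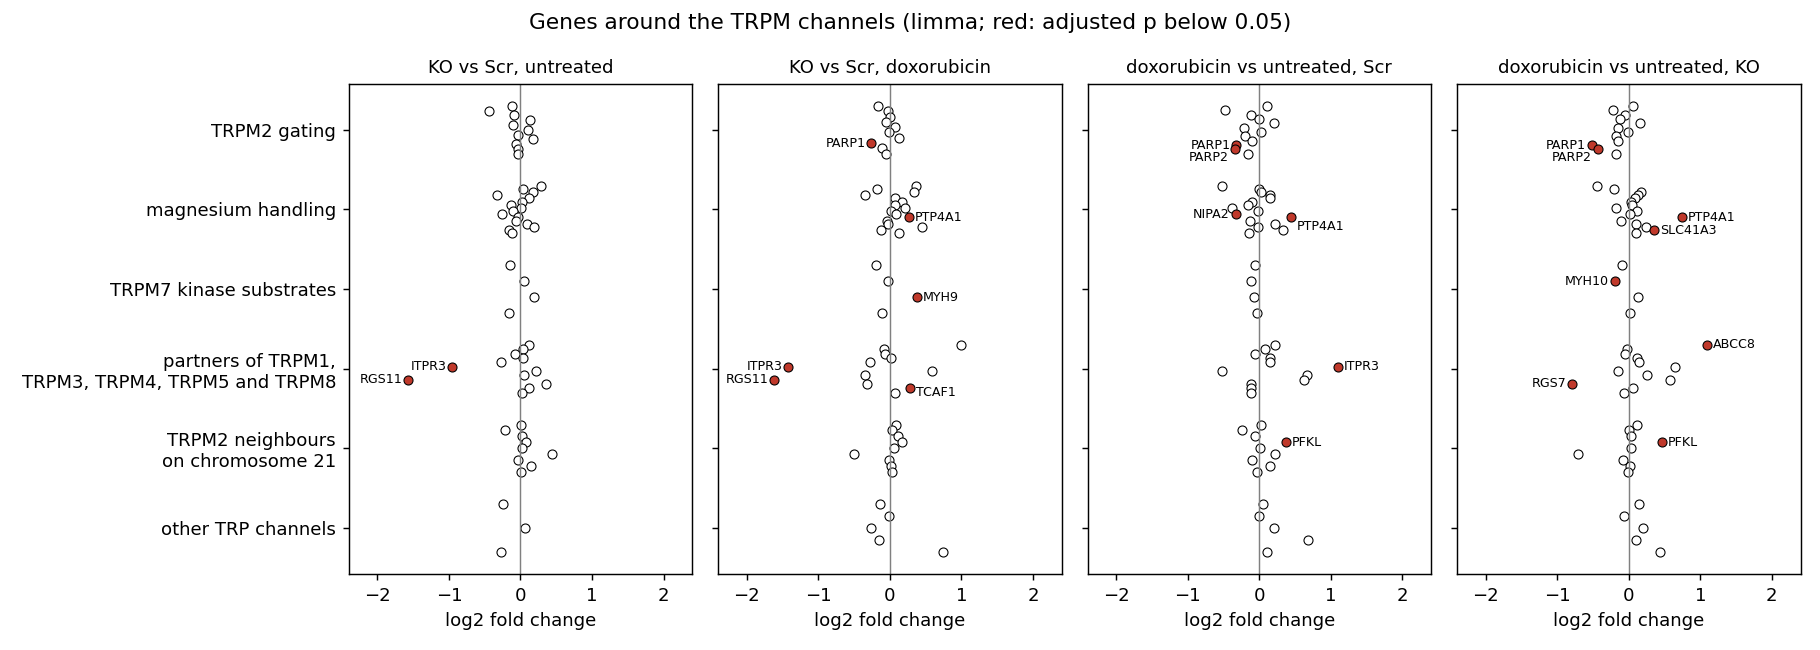
Log2 fold change of the tested genes shown of 6 lists around the TRPM channels in 4 comparisons (limma), where each point is a gene and red points, with names, have an adjusted p below 0.05. RGS11 and ITPR3 lie farthest to the left in both genotype comparisons, PARP1 and PARP2 lie left and PTP4A1 and PFKL right of 0 in both doxorubicin comparisons, and the row of other TRP channels has no red point.

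None of the other TRP channels tested was called in any comparison by limma or edgeR, nor by DESeq2, which gave 3 of them no adjusted p with the drug in Scr and for the interaction. Of 3 tested without treatment 1 had an unadjusted limma p below 0.05 between genotypes, and after doxorubicin 1 of 6 had. With the drug, 1 of 6 had in Scr and 0 of 6 in KO-labelled clones. Limma called 4.84% and 8.69% of all genes tested between genotypes, 12.6% and 17.8% with the drug, 0.0261% for the interaction, and 0.0348% and 0.138% between clones. The median log2 difference of the tested channels was -0.24 and -0.08 between genotypes and 0.07 and 0.17 with the drug.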

How the data were processed

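Libraries of poly(A) RNA were made with a directional kit, and the submitters' notes name bcl2fastq, HISAT2 2.1.0, HTSeq, edgeR and the build GRCh38. The use of strand in counting is not given in the sources used here. The values per library are a signal that the authors deposited as normalized CPM, that is counts scaled to an effective library size, in 1 table per treatment. Whole reads were recovered for 100% of values (within 0.01 read), and the 2 tables shared a scale, with deposited factors within 0.992 to 1.01 times those of a joint normalization. The authors' fold changes, p-values and q-values were not used, and 0 columns of values were left unassigned. Depth was 10481177 to 25086085 reads on genes per library, so a member at 3 reads or fewer was taken as not detectable.

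The comparisons, 7 in all, used limma 3.58.1 (R 4.3.3). Values entered as log2(normalized CPM + 1), genes were kept when 4 or more libraries of the fit reached 1 normalized CPM, and the fit had an abundance trend and Benjamini-Hochberg adjustment over all genes tested at 0.05. Doxorubicin and the interaction were fitted on 16 libraries with a term for clone, genotype on the 8 libraries of a treatment, and clones on the 8 libraries of a genotype with a term for treatment. edgeR 4.0.16 and DESeq2 1.42.0 were run on recovered reads as alternatives, beside other pseudocounts, filters, scalings, blocks and left-out libraries and clones. On recovered reads edgeR called 636 genes between untreated genotypes, 1193 after the drug, and 1867 and 2568 with the drug in Scr and KO-labelled clones, where limma called 695, 1266, 1935 and 2727. The scripts were tested on simulated data. TRPM2 was also compared with an exact permutation test, and intervals of read ratios are exact binomial intervals at 95%. Gene names and positions came from GENCODE 29, and exon length is the union of exons.

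All 6 members were named, and of each other list the members past the threshold, at most 5 per comparison. Likeness was taken for members with a mean of at least 1 normalized CPM (3 genes each). The members and lists, of TRPM2 gating, magnesium handling, TRPM7 kinase substrates, channel partners, chromosome 21 neighbours, other TRP channels, and adrenergic, melanocyte, Schwann cell and fibroblast markers, were chosen with earlier results of these data known. Some genes of these lists are not reported here.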

Additional observations from a re-analysis of the deposited data

Results flagged for a closer look

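In 3 of the 21 groups of 4 libraries with any spread, the gap of the highest library to the next took up 1 of 1 of the group's range, beyond Dixon's 95% critical value for 4 values, and chance gives about 1 such group in 20 for continuous values, a rate that does not apply to counts at the floor. TRPM8 in untreated libraries labelled KO was at 0.584 normalized CPM in KO28 replicate 2 and at 0 in the other 3, TRPM5 in the same group was at 0.241 in KO11 replicate 2 and at 0 in the other 3, and TRPM3 in untreated Scr was at 0.0576 in Scr13 replicate 2 and at 0 in the other 3. These are 8 reads, 4 reads and 1 read, and since the other 3 libraries of each group had 0 reads, the ratio of 1 follows from the zeros.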

How the results depend on the processing

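TRPM2 kept its call in untreated cells under all 14 alternatives that tested it (1.39 to 4.95 on the log2 scale, adjusted p up to 0.0422). All of these kept the 4 KO-labelled libraries, through which alone it passed the filter, so their number is no support. TRPM4 kept its rise with doxorubicin in Scr under all 23 (0.62 to 0.85, adjusted p up to 0.0376) and in KO-labelled clones under 22 of 23. No alternative brought TRPM7 past the threshold in any comparison. Directions that turned belong to differences near 0, and the cause was not tested. TRPM4 between genotypes without the drug was -0.0015 without Scr16 untreated replicate 1, -0.017 without KO28 untreated replicate 2 and -0.10 without clone KO28, with -0.017 to 0.18 over left-out libraries, and TRPM7 was 0.012 without clone KO28. After the drug TRPM4 was 0.010 with reads summed per clone, between -0.14 and 0.14 with 1 library left out (0.0099 without KO11 doxorubicin replicate 1, 0.14 without replicate 2, 0.099 and 0.065 without Scr13 doxorubicin replicates 1 and 2), 0.24 without clone KO11 and 0.26 without clone Scr13. TRPM7 was then -0.0047 under library size alone, -0.028 without Scr13 doxorubicin replicate 1, -0.029 without KO28 doxorubicin replicate 1, -0.011 without clone KO11 and -0.038 without clone Scr13, with a range of -0.029 to 0.075 over left-out libraries. TRPM7 with the drug in KO-labelled clones was -0.0027 in edgeR, -0.022 under library size alone, -0.026 without KO28 untreated replicate 2 and -0.062 without KO28 doxorubicin replicate 1 (range -0.062 to 0.063). The TRPM4 interaction was 0.0029 without Scr13 untreated replicate 1 (range -0.23 to 0.0029). TRPM4 with the drug in KO-labelled clones ranged from 0.55 to 0.71 over left-out libraries.

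Genes called between untreated genotypes (695) fell to 368 without the filter, 330 without clone Scr13 and 327 without clone Scr16, with 508 to 678 when 1 library was left out. After the drug (1266) they fell to 510 without clone KO11 and 575 without clone KO28, with 814 to 1314 over left-out libraries. Interaction calls (4) were 2 without the filter, 10 by edgeR, 58 by DESeq2 and 1 to 19 over left-out libraries. Scr16 against Scr13 (5) gave 0 without the filter, 2 by edgeR and 1 to 32 over left-out libraries, and KO28 against KO11 (20) gave 0, 10 by edgeR, 43 by DESeq2 and 3 to 91. Replicate numbers were checked as pairs, and same-numbered libraries correlated between -0.045 and 0.086 in their deviations. Across genotypes these deviations also hold clone differences, and libraries with different numbers were not compared. The check therefore cannot decide whether the numbers pair samples, and the main fits did not use them. With the replicate block the interaction gave 22 calls, TRPM2 in untreated cells stayed at 1.47 (adjusted p = 0.00204), and no member changed its side of the threshold. The limits of depth fall on TRPM2, TRPM5, TRPM8 and TRPM3, with 0 to 40 reads in a library. The filter leaves TRPM2 untested when a KO-labelled library or clone is left out in untreated cells.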
